A study of Homo sapiens with 9 samples.

Results

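Galectins are lectins that bind beta-galactosides on glycoproteins and glycolipids. LGALS1 and LGALS7B encode prototype members with a single carbohydrate recognition domain, LGALS3 encodes the chimera-type member, and LGALS8, LGALS9 and LGALS12 encode tandem-repeat members that carry a pair of such domains. Galectin-12, the product of LGALS12, is known mainly from adipocytes, where it sits on lipid droplets, and from myeloid cells. The 6 galectin genes described here, LGALS1, LGALS3, LGALS7B, LGALS8, LGALS9 and LGALS12, were taken by gene symbol from a table of 58884 genes. The family was chosen by the counts of LGALS12, which was close to undetected in both metastatic lines, so the values of LGALS12 against the parental line are given as a description without a test.

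The libraries are bulk RNA-seq of MDA-MB-231, an established human breast cancer cell line, and of its metastatic derivatives. The groups were the parental line (Par), the lung metastatic derivative LM2 and the brain metastatic derivative BrM2, with 3 libraries each. LM2 and BrM2 are populations recovered from metastases of this line in mice, so each is 1 selected population. All were grown as monolayers in DMEM with 10% FBS and penicillin-streptomycin, and no agent was applied to any group.

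The libraries held between 14371858 and 24511786 counts, and the shallowest was BrM2 replicate 1. Libraries with the same replicate number deviated from their line means together, with r between 0.23 and 0.90 across genes in the 9 pairs of libraries. Replicate 2 of a line and replicate 3 of another did so too, with r between 0.39 and 0.80. The replicate 1 libraries of all 3 lines stood apart from the others. The galectins moved with this split. In log2 CPM (counts relative to the normalized size of each library), replicate 1 minus the mean of replicates 2 and 3 was 0.52, 1.04 and 1.36 for LGALS1 in Par, LM2 and BrM2, and 1.28, 1.60 and 1.82 for LGALS9, whereas it lay between −1.10 and −0.99 for LGALS8. The transcripts of LGALS1 and LGALS9 hold 58.3% and 58.7% G and C and that of LGALS8 holds 40.3%, and the part of base composition in these differences was not tested. For the tested members, results are therefore given with the replicate number as a block, and without replicate 1, wherever either changed a call. For the gene lists the block is given mainly as counts of calls, so a named gene's call may change under it without mention.

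Markers of the line and of other cell types were summed. The summed level of 5 mesenchymal markers lay between 2091 and 3878 CPM in the 9 libraries, and 4 of the 5 passed the filter on low counts. In Par, LM2 and BrM2, VIM averaged 725, 1537 and 1501 CPM, CD44 611, 720 and 753, and FN1 886, 1131 and 290. ZEB1 averaged 73.8, 92.3 and 60.5 CPM. CDH2, which did not pass, averaged 0.504, 0.406 and 0.297. The 5 epithelial markers summed to between 610 and 2100 CPM, nearly all from keratins, with KRT8 at 853, 517 and 508 CPM on average in Par, LM2 and BrM2, KRT18 at 432, 428 and 410, and KRT19 at 206, 45.6 and 191. EPCAM averaged 7.17, 4.82 and 6.09 CPM and CDH1, the epithelial cadherin, 1.20, 0.345 and 0.431. Of the hormone and HER2 receptors, ERBB2 averaged 112, 86.0 and 83.6 CPM, ESR1 0.171, 0.395 and 0.350, and PGR was at 0 in Par and LM2. Because LGALS12 is known from adipocytes and myeloid cells, markers of both were included. The 5 adipocyte markers summed to between 0.0738 and 0.979 CPM in any library and none passed the filter on low counts, with ADIPOQ and LEP at 0 in all 9 libraries. The 5 leukocyte markers summed to between 1.28 and 4.62 CPM, most of it from CD14, with MPO at 0 in all 9 libraries.

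LGALS12 (ENSG00000133317) spans chr11:63506084-63516772 on the plus strand of GRCh38. It received 992, 567 and 856 counts in the Par libraries 1, 2 and 3. In LM2 it received 1, 0 and 0 counts, and in BrM2 it received 3, 1 and 1. Every Par library was thus far above every metastatic library, and all 6 metastatic libraries lay at or under 3 counts, which stood for 0.115 to 0.221 CPM at their depths. The mean level was 37.7 ± 12.8 CPM in Par (SD, n = 3), 0.0166 ± 0.0287 in LM2 and 0.104 ± 0.101 in BrM2. From the counts summed over 3 libraries, 2415 in Par against 1 in LM2 and 5 in BrM2, the level in Par was 2622 times that in LM2, with an exact 95% interval of 470.1 to 103596, and 423 times that in BrM2, with an interval of 181 to 1304. These intervals cover counting error only. The ratio to LM2 rests on the single count of LM2 replicate 1, without which LM2 is at 0, and without the replicate 1 libraries the ratio to BrM2 was 671. No fold is given between LM2 and BrM2, since both were at or under 3 counts per library. None of the 50-base stretches of the LGALS12 transcripts occurred in another gene, and no exon of another gene overlapped it. In bulk RNA, fewer cells with the transcript and less transcript per cell cannot be told apart.

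**Figure D1:**
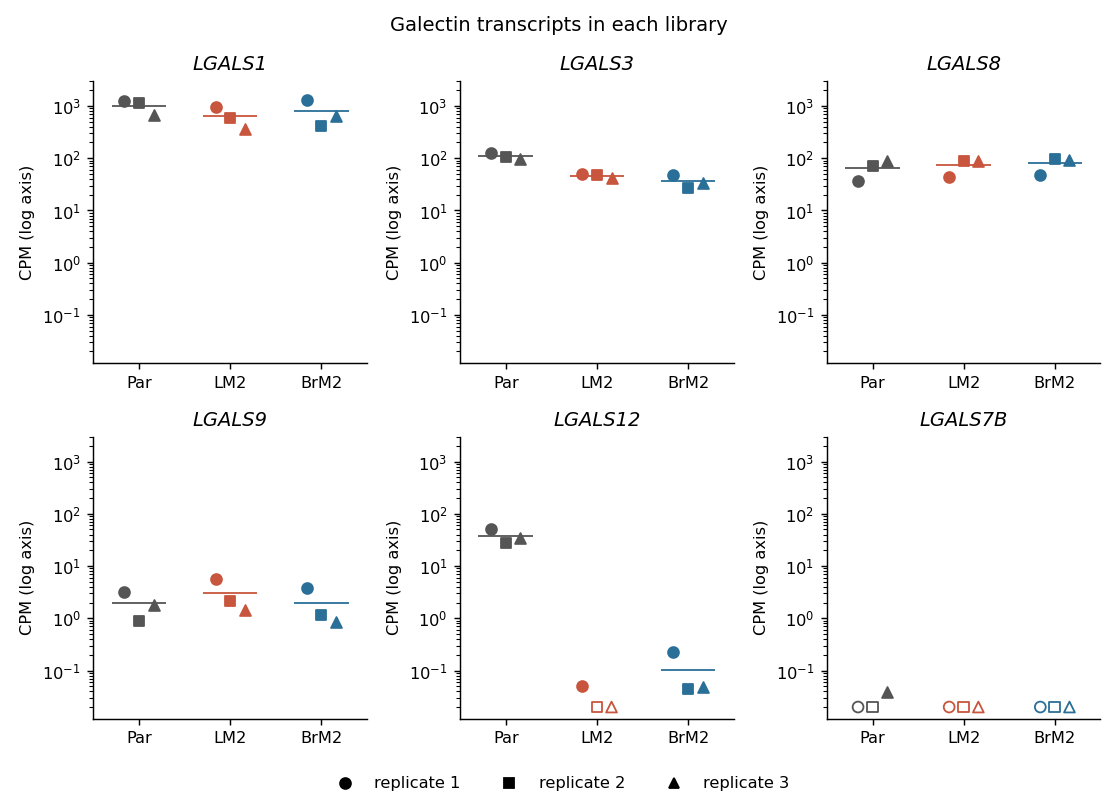
Level of the 6 galectin genes in each of the 9 libraries, in CPM on a log axis, with lines in columns, a bar at the mean and the marker shape giving the replicate number. Open symbols at the foot are libraries with 0 counts, drawn at a fixed height. LGALS12 falls from 27.4 to 52.1 CPM in Par to at most 0.221 CPM in LM2 and BrM2, LGALS3 is lower in both metastatic lines, and replicate 1 (circles) is low for LGALS8 and high for LGALS9 in every line.

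With levels divided by transcript length, the order of the 5 members that passed the filter on low counts differed between the lines only in the place of LGALS12. In Par, LGALS1 came first at 1901 ± 574 CPM per kb, followed by LGALS3 at 114 ± 13.6, LGALS12 at 22.2 ± 7.56, LGALS8 at 10.8 ± 4.34 and LGALS9 at 1.14 ± 0.681. The closest neighbours in this order were LGALS12, whose lowest Par library was at 16.1 CPM per kb, and LGALS8, whose highest was at 14.6, so that even these did not overlap. In LM2 the order was LGALS1 at 1204 ± 561, LGALS3 at 48.2 ± 4.43, LGALS8 at 12.3 ± 4.27, LGALS9 at 1.78 ± 1.27 and LGALS12 at 0.00975 ± 0.0169 CPM per kb. In BrM2 the same genes stood at 1508 ± 897, 38.3 ± 11.0, 13.3 ± 4.64, 1.12 ± 0.927 and 0.0615 ± 0.0596 CPM per kb. Per kb, LGALS12 was thus the third galectin of the parental line. In CPM it lay below LGALS8 there, at 37.7 against 64.6 on average, and the LGALS8 values are uncertain, as given below. In the metastatic lines LGALS12 had no more than 3 counts per library, and of the 6 genes only LGALS7B was as low.

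LGALS7B (ENSG00000178934, chr19:38789200-38791754, plus strand), one of the genes of galectin-7, a protein of stratified epithelia, was not expressed at a measurable level. It received 1 count in Par replicate 3 and 0 in the other 8 libraries, where 0 counts allow a level of up to 3 counts, between 0.115 and 0.221 CPM. Its near-identical copy LGALS7 received 0 counts in all 9 libraries. As 65.0% of the 50-base stretches of LGALS7B occur in LGALS7, reads of these genes can be lost or split. LGALS7B did not pass the filter on low counts, and the other 5 members did.

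Of the 4 members tested (LGALS1, LGALS3, LGALS8 and LGALS9), LM2 had 1 below Par and 0 above it at an adjusted p under 0.05 in edgeR's quasi-likelihood test. Over the 13105 genes tested, 8.7% passed in this comparison, 4.53% lower and 4.17% higher. Against Par, BrM2 likewise had 1 member lower and 0 higher, where 13.3% of all genes passed, 7.06% lower and 6.26% higher. For BrM2 against LM2, 0 of the 4 passed in edgeR, 0 had an unadjusted p under 0.05 and 0 passed in DESeq2, where 8.09% of all genes passed in edgeR, 4.0% lower and 4.09% higher. With the replicate block the counts became 2, 2 and 0, where 34.5%, 42.6% and 37.4% of all genes passed. The median log2 fold change of all genes tested was 0.01, −0.02 and −0.03 in the 3 comparisons. The comparisons with Par use the same 3 Par libraries and are not independent.

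LGALS3 (ENSG00000131981, chr14:55129252-55145430, plus strand) was the member that passed. Galectin-3 forms oligomers through its N-terminal tail, and is found on the cell surface, in the cytoplasm and at damaged lysosomes. The gene received 2353, 2192 and 2502 counts in Par, 1002, 1156 and 1083 in LM2, and 654, 623 and 714 in BrM2. In CPM the libraries lay between 98.3 and 124 in Par, 41.5 and 49.8 in LM2, and 27.5 and 48.2 in BrM2. Neither metastatic line overlapped Par, which was also so for 25.2% of all genes tested in LM2 and 31.4% in BrM2, whereas LM2 and BrM2 overlapped each other. LGALS3 was 2.37-fold lower in LM2 (log2 fold change −1.24, SE 0.23, adjusted p = 0.011, edgeR) and lower in 3 of 3 same-numbered pairs of libraries. It was 2.98-fold lower in BrM2 (−1.58, SE 0.24, adjusted p = 0.0026, edgeR), also in 3 of 3 pairs. The fall in LM2 missed the threshold without LM2 replicate 2 (adjusted p = 0.054) or LM2 replicate 3 (0.057), at log2 fold changes of −1.26 and −1.17, and it passed without any other single library. The fall in BrM2 passed without any of the 9 libraries. BrM2 differed from LM2 by −0.33 (SE 0.23, adjusted p = 0.49). Without the replicate 1 libraries this difference was −0.51 with an adjusted p of 0.03, and the falls against Par were −1.20 (adjusted p = 0.0007) and −1.71 (0.0001). Without replicate 2 or replicate 3 of all lines both calls against Par were lost, at −1.26 (adjusted p = 0.27) and −1.20 (0.34) in LM2 and at −1.40 (0.16) and −1.54 (0.15) in BrM2.

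The sequence upstream of LGALS3 is shown because it is the galectin of this set whose level passed the test in both lines. It is the 250 bases before the annotated start in RefSeq, chr14:55129002-55129251 of GRCh38.p14, plus strand, with matches to the GC box letters GGGCGG on either strand in capitals.
LGALS3: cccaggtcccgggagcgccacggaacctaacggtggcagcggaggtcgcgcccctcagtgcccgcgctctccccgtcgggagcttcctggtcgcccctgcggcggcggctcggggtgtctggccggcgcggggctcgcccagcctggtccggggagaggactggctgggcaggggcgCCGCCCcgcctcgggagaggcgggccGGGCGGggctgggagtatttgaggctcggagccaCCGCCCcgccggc
This window holds 78.8% G and C and 32 CG dinucleotides, above the upper quartile of 23 over 35116 such windows. The GC box letters occur in 42.6% of all windows on either strand. TATAAA and CCAAT, which occur in 10.7% and 32.0% of all windows, had no match in this one.

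LGALS1 (ENSG00000100097, chr22:37675636-37679802, plus strand) encodes galectin-1, a dimeric lectin secreted by many tumour cells. It was the most abundant galectin of all 3 lines. It received 23475, 23100 and 16815 counts in Par, 19177, 14389 and 9560 in LM2, and 17980, 9387 and 13528 in BrM2. In CPM the means were 1004 ± 303, 635 ± 296 and 796 ± 474 (SD, n = 3), and the libraries of every pair of lines overlapped. The level in LM2 was lower than in Par in 3 of 3 same-numbered pairs, with a log2 fold change of −0.66 (SE 0.48, adjusted p = 0.54, edgeR). With the replicate block the difference was −0.73 (SE 0.25) and passed at an adjusted p of 0.041, but without the replicate 1 libraries it was −0.90 with an adjusted p of 0.063. BrM2 differed from Par by −0.33 (SE 0.48, adjusted p = 0.76) and from LM2 by 0.33 (SE 0.48, adjusted p = 0.79). LGALS1 in BrM2 was thus not distinguishable from either line at this spread.

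LGALS8 (ENSG00000116977, chr1:236518214-236552981, plus strand) encodes galectin-8, which binds integrins outside the cell and exposed glycans on broken vesicles inside it. The gene received 692, 1449 and 2220 counts in Par, 887, 2149 and 2310 in LM2, and 648, 2227 and 1929 in BrM2. The mean levels of 64.6 ± 25.9, 73.4 ± 25.4 and 79.5 ± 27.6 CPM overlapped throughout, and the lowest library of each line was replicate 1. The log2 fold change was 0.19 in LM2 (SE 0.41, adjusted p = 0.89) and 0.30 in BrM2 (SE 0.41, adjusted p = 0.75) in edgeR. With the replicate block the value in BrM2 was 0.32 (SE 0.12) and passed at an adjusted p of 0.049, and without replicate 1 it was 0.29 with an adjusted p of 0.091. The exons of LGALS8 overlap those of HEATR1 on the opposite strand, a gene with 10643 counts over the 9 libraries, and since the strand counted is not given in the sources used here, the LGALS8 values are uncertain.

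LGALS9 (ENSG00000168961, chr17:27631188-27649560, plus strand) encodes galectin-9, a ligand of immune checkpoint receptors. It was low, with 61, 18 and 46 counts in Par, 112, 53 and 38 in LM2, and 51, 26 and 18 in BrM2. The mean levels were 1.96 ± 1.17, 3.06 ± 2.20 and 1.92 ± 1.60 CPM, the lines overlapped, and replicate 1 was the highest library of each. The log2 fold change was 0.64 in LM2 (SE 0.71, adjusted p = 0.73), −0.06 in BrM2 (SE 0.73, adjusted p = 0.98) and −0.70 between BrM2 and LM2 (SE 0.72, adjusted p = 0.67) in edgeR. These standard errors exceed the differences. With the replicate block the differences were 0.56 (SE 0.31), −0.16 (SE 0.33) and −0.72 (SE 0.31), at adjusted p of 0.18, 0.72 and 0.092 in edgeR. No change of LGALS9 thus passed the threshold in either model at this depth and spread.

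**Figure D2:**
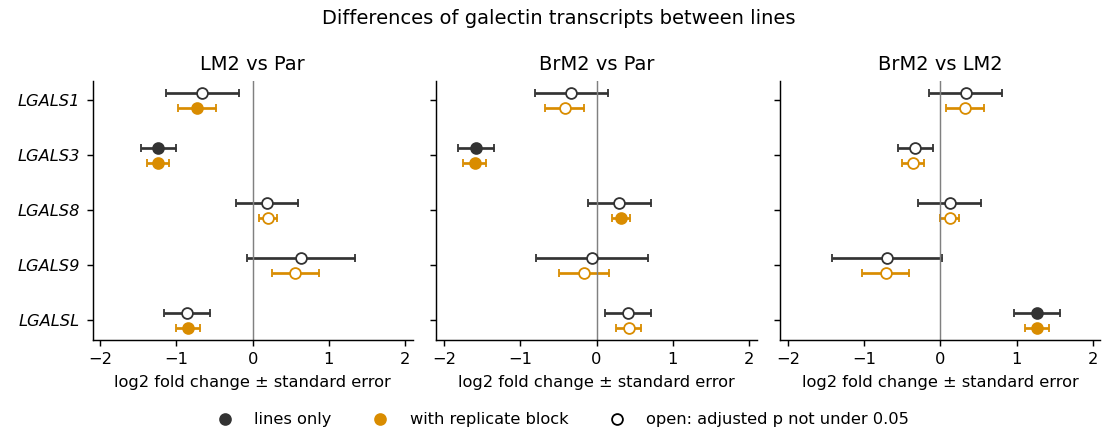
Log2 fold change of LGALS1, LGALS3, LGALS8, LGALS9 and the galectin-related gene LGALSL in the 3 comparisons, with bars of 1 standard error, from the model with lines only (dark) and with the replicate block (orange). Filled points have an adjusted p under 0.05. LGALS3 is below 0 in LM2 and BrM2 against Par under both models, and LGALSL is above 0 between BrM2 and LM2 at 1.27.

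The other galectin genes of the genome, 11 in number, were looked at beside the members, and 2 of them passed the filter on low counts. LGALS9C and LGALS9B are close copies of LGALS9 elsewhere on chromosome 17. LGALS9C (chr17:18476789-18494945, plus strand) received 1, 1 and 0 counts in Par, 88, 68 and 52 in LM2, and 26, 31 and 20 in BrM2. Every metastatic library was above every Par library, and the gene passed the filter on low counts only through its LM2 libraries. By summed counts it was 95.8 times as high in LM2 as in Par (exact 95% counting interval 26.2 to 796) and 43.9 times as high in BrM2 (11.8 to 369). These values are a description, since a gene that enters the test through its highest line alone had to differ. LGALS9B (chr17:20449395-20467539, minus strand) did not pass the filter. It received 3, 4 and 4 counts in Par, 33, 26 and 20 in LM2, and 11, 7 and 9 in BrM2, so that it too was lowest in Par. Its level in LM2 was 6.62 times that in Par (3.50 to 13.8) and in BrM2 2.80 times (1.35 to 6.26). Of the 50-base stretches of LGALS9C, 36.3% occur in LGALS9B, and of those of LGALS9B, 67.3% occur in LGALS9C, so reads may be split between them and the rise cannot be placed with certainty in either copy. LGALS9 shares 6.9% of its stretches with LGALS9C.

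**Figure D3:**
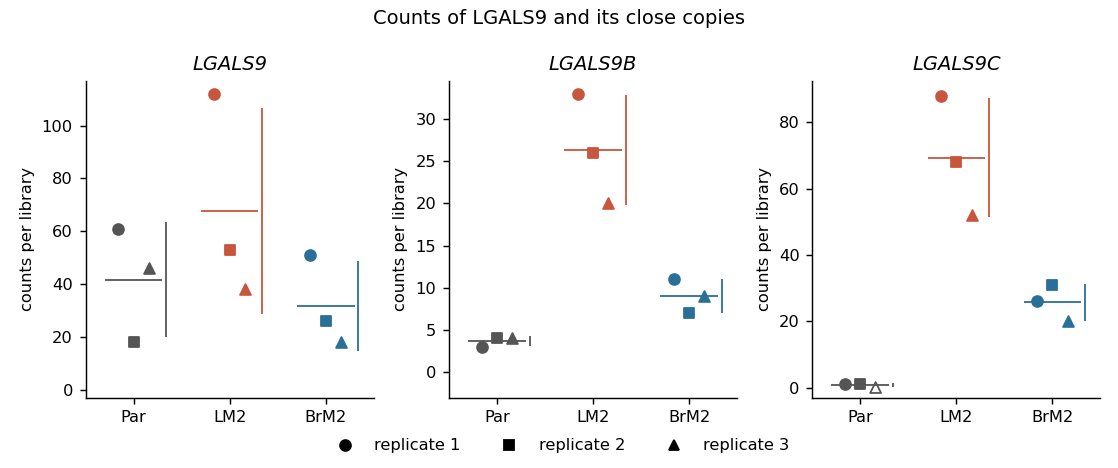
Counts of LGALS9, LGALS9B and LGALS9C in each library, on linear axes, with a bar at the mean, a vertical line for 1 SD and the marker shape giving the replicate number. LGALS9C holds at most 1 count in Par against 52 to 88 in LM2 and 20 to 31 in BrM2, whereas the libraries of LGALS9 overlap between lines.

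The sequences upstream of LGALS9 and its copies are shown because genes of nearly the same upstream sequence differed in how their counts moved. Each is the 250 bases before the RefSeq start, at chr17:27630938-27631187 (plus strand) for LGALS9, chr17:20467540-20467789 (minus strand) for LGALS9B and chr17:18476539-18476788 (plus strand) for LGALS9C, all GRCh38.p14, and capitals in the copies mark bases that differ from LGALS9.
LGALS9: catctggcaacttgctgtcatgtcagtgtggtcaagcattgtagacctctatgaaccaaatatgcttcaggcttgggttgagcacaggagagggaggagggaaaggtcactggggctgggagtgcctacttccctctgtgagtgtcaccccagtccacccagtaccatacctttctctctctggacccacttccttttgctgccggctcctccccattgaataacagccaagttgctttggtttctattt
LGALS9B: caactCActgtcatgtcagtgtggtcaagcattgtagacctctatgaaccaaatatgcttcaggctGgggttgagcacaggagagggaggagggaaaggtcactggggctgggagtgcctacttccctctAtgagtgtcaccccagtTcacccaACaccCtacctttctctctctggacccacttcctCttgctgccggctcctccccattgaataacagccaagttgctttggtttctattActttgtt
LGALS9C: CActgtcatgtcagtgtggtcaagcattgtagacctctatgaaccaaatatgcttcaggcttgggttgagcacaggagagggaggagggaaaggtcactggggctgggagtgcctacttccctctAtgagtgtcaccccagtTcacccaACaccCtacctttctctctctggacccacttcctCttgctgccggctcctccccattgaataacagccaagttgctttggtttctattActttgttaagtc
The LGALS9C window was identical to that of LGALS9 at 96.2% of 238 aligned bases, with 9 differences, and that of LGALS9B at 95.9% of 243 aligned bases, with 10 differences. Each of the 3 windows held 1 CG dinucleotide, under the lower quartile of 3 over all windows, and none held a match to the motifs searched in LGALS3.

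LGALSL, a galectin-related gene whose protein lacks the usual sugar binding, received 90, 134 and 207 counts in Par, 56, 87 and 113 in LM2, and 85, 208 and 215 in BrM2. In CPM every LM2 library, at 2.78 to 4.33, was below every Par library, at 4.73 to 8.13, and every BrM2 library, at 6.27 to 10.3. Of all genes, 25.2% had no overlap between LM2 and Par and 23.2% had none between BrM2 and LM2. LGALSL was 2.41-fold higher in BrM2 than in LM2 (log2 fold change 1.27, SE 0.30, adjusted p = 0.034, edgeR), in 3 of 3 same-numbered pairs. This call was lost without Par replicate 2, without any of the 3 LM2 libraries and without BrM2 replicates 2 or 3, with log2 fold changes between 1.12 and 1.45 over the 9 fits that left out 1 library. LM2 differed from Par by −0.86 (SE 0.30, adjusted p = 0.13), and this passed with the replicate block (−0.85, adjusted p = 0.0024) and without replicate 1 (−0.89, adjusted p = 0.014). BrM2 differed from Par by 0.41 (SE 0.30, adjusted p = 0.47). Of the remaining galectin genes, LGALS2 received between 2 and 10 counts per library, LGALS4 between 0 and 6 and GRIFIN between 0 and 1, and LGALS7, LGALS13, LGALS14, LGALS16 and CLC received 0 in all 9 libraries.

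The genes around LGALS12 were examined next. Of the RefSeq genes that could be matched to a counted gene, 24 others had a start within 500 kb of that of LGALS12. Of these, 11 passed the filter on low counts. The nearest ones encode PLAAT proteins, phospholipid-modifying enzymes of which PLAAT3 is known from adipose tissue and PLAAT4 as a retinoid-inducible gene. PLAAT5 entered the test only through Par and is described by its counts. Of the other 10, 2 fell in LM2 (where 8.7% of all genes passed) and 2 fell in BrM2 against Par (13.3%), and 0 rose in either. In both comparisons these were PLAAT4 and PLAAT3. For BrM2 against LM2 (8.09%), 0 of the 10 passed in edgeR, 2 had an unadjusted p under 0.05 and 1 passed in DESeq2. Under the block 5, 5 and 3 passed in the 3 comparisons, where 34.5%, 42.6% and 37.4% of all genes did.

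PLAAT5, whose start lies 14.9 kb before that of LGALS12, received 74, 51 and 73 counts in Par, 0, 0 and 0 in LM2, and 1, 1 and 0 in BrM2, with no overlap between Par and the metastatic lines. It was at least 23.9-fold lower in LM2, taking 3 counts per library as the floor, and Par held 86.7 times the level of BrM2 by summed counts (exact 95% counting interval 23.7 to 721). PLAAT4, 30.7 kb beyond the LGALS12 start, received 1992, 979 and 1302 counts in Par, 237, 124 and 108 in LM2, and 90, 65 and 76 in BrM2. Its log2 fold change was −3.28 in LM2 (SE 0.54, adjusted p = 0.0057) and −3.96 in BrM2 (SE 0.56, adjusted p = 0.0019). Neither metastatic line overlapped Par, where 25.2% of all genes did not in LM2 and 31.4% did not in BrM2. Both calls of PLAAT4 passed without any single library but were lost without replicate 2 or replicate 3 of all lines.

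PLAAT3, at 111 kb, received 2413, 2482 and 3106 counts in Par, 978, 1046 and 1044 in LM2, and 1012, 1121 and 1279 in BrM2. It fell by 1.49 on the log2 scale in LM2 (SE 0.20, adjusted p = 0.0019) and by 0.99 in BrM2 (SE 0.20, adjusted p = 0.01), and the latter missed the threshold without BrM2 replicate 2 (adjusted p = 0.054) or BrM2 replicate 3 (0.053). PLAAT2, at 59.0 kb, did not pass the filter on low counts and received 14, 19 and 13 counts in Par, 1, 2 and 2 in LM2, and 4, 0 and 1 in BrM2. By summed counts Par held 9.99 times the level of LM2 (3.98 to 32.2) and 8.06 times that of BrM2 (3.22 to 26.0).

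The genes further out did not share these differences at the threshold. ATL3, an atlastin GTPase gene of the endoplasmic reticulum at 166 kb, had log2 fold changes of −0.06 in LM2 (SE 0.21, adjusted p = 0.93) and −0.44 in BrM2 (SE 0.21, adjusted p = 0.25). RTN3, at 175 kb, had −0.13 (SE 0.16, adjusted p = 0.75) and −0.29 (SE 0.16, adjusted p = 0.30). ZFTA, SPINDOC, MARK2, NAA40, COX8A and OTUB1, at 263 to 480.4 kb, had values between −0.50 and 0.04 in LM2 and between −0.67 and 0.13 in BrM2, with adjusted p of 0.16 or more. With the replicate block ZFTA, SPINDOC and OTUB1 also passed in LM2 (adjusted p of 0.013, 0.028 and 0.029) and ATL3, RTN3 and COX8A in BrM2 (0.019, 0.043 and 0.014), all lower. With the block BrM2 differed from LM2 for PLAAT4 (adjusted p = 0.013), PLAAT3 (0.013) and ZFTA (0.0038). On the other side of PLAAT5, the matched genes within 500 kb, among them SLC22A8, SLC22A9, SLC22A10, SLC22A24 and SLC22A25, received 0 counts in all libraries.

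**Figure D4:**
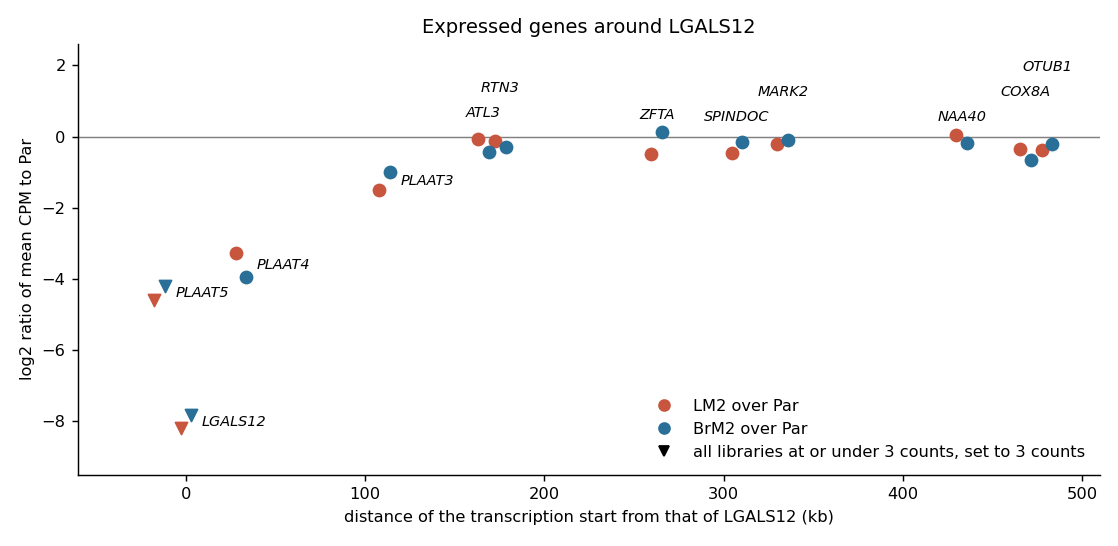
Log2 ratio of the mean CPM of LM2 (red) and BrM2 (blue) to that of Par for LGALS12 and the 11 neighbouring genes that passed the filter on low counts, against the distance of each start from that of LGALS12 in kb, with small sideways shifts to separate the lines. Triangles are lines whose libraries all lay at or under 3 counts, with 3 counts per library put in their place. The genes from −14.9 to 111 kb lie between −8.19 and −0.99, and those from 166 kb outward lie between −0.67 and 0.13.

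By its level over the 9 libraries, LGALS12 was nearest to HSD3B1, with a root mean square difference of 1.09 in centred log2 CPM, against a median of 3.84 over the 13104 other genes tested. HSD3B1, a steroid dehydrogenase gene, received 119, 99 and 162 counts in Par and 0 in all LM2 and BrM2 libraries. The next were RARRES2 (1.31), ATP2B2 (1.51), PLAAT5 (1.54) and VSTM4 (1.63). RARRES2, which encodes the adipokine chemerin, received 1233, 754 and 665 counts in Par, 23, 19 and 21 in LM2, and 9, 7 and 3 in BrM2. Of the other galectins, LGALS3 (3.16) and LGALS1 (3.53) lay below the median of 3.84 and LGALS9 (3.95) and LGALS8 (4.02) above it. Nearness here largely restates the fall against Par by which LGALS12 was picked, so these places are a description and not support. The 5 nearest genes passed the filter on low counts only through Par.

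Of 24 listed genes of glycoproteins that galectins bind, 19 were tested. In LM2 against Par 0 were higher and 1 lower (median log2 fold change −0.06), where 8.7% of all genes passed. In BrM2 against Par 1 was higher and 4 lower (−0.31), where 13.3% passed, and in BrM2 against LM2 0 were higher and 2 lower (−0.18), where 8.09% passed. The block gave 1 higher and 5 lower, 1 and 9, and 2 and 6, where 34.5%, 42.6% and 37.4% of all genes passed. MUC1, a membrane mucin whose glycans galectin-3 binds, lay at 16.9 to 23.7 CPM in Par, 1.57 to 3.58 in LM2 and 0.192 to 0.664 in BrM2. It had no overlap between any lines, where 25.2%, 31.4% and 23.2% of all genes had none in the 3 comparisons. Its log2 fold change was −3.01 in LM2 (SE 0.41, adjusted p = 0.0021), −5.60 in BrM2 (SE 0.49, adjusted p = 0.0002) and −2.59 between BrM2 and LM2 (SE 0.46, adjusted p = 0.0095), and the last missed the threshold without BrM2 replicate 2 (adjusted p = 0.051). FN1, the matrix protein fibronectin, lay at 800 to 1047 CPM in Par, 1120 to 1153 in LM2 and 275 to 308 in BrM2. BrM2 differed from Par by −1.61 (SE 0.17, adjusted p = 0.00041) and from LM2 by −1.96 (SE 0.17, adjusted p = 0.00027). Both calls were lost without replicate 2 (adjusted p of 0.081 and 0.079, edgeR) or replicate 3 (0.073 and 0.053) of all lines.

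Among the other partners, EGFR was higher in BrM2 than in Par (0.94, adjusted p = 0.017), a call lost without any of the 3 Par libraries or BrM2 replicates 2 or 3. The 4 lower genes in BrM2 include TNFRSF9, a costimulatory receptor gene with at most 41 counts per library, which passed the filter on low counts only through Par, where it is highest, and so is not counted as support. LGALS3BP, a secreted galectin-3 ligand, averaged 466 ± 121, 360 ± 156 and 364 ± 165 CPM in Par, LM2 and BrM2. Its log2 fold changes were −0.37 in LM2 and −0.36 in BrM2 (adjusted p of 0.71 and 0.67, edgeR), and it was lower in 3 of 3 same-numbered pairs in each. Blocked on the replicate both passed, at −0.43 (adjusted p = 0.028) and −0.42 (0.026). LGALS3BP was named after its values were seen.

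Enzymes that build or cap the galactose-containing glycans that galectins read were tested for 20 of the 23 listed. In LM2 against Par 2 were higher and 0 lower (median −0.29), against 8.7% of all genes passing. In BrM2 against Par 4 were higher and 1 lower (−0.02), against 13.3%, and in BrM2 against LM2 2 were higher and 0 lower (0.28), against 8.09%. Blocked on the replicate, 3 were higher and 10 lower, 6 and 3, and 9 and 2, against 34.5%, 42.6% and 37.4% of all genes. ST6GAL1, whose alpha-2,6 sialylation is known to mask galactose from several galectins, lay at 2.21 to 4.64 CPM in Par, 10.4 to 13.8 in LM2 and 17.7 to 20.1 in BrM2. It was higher by 1.87 in LM2 (SE 0.29, adjusted p = 0.0046) and by 2.53 in BrM2 (SE 0.30, adjusted p = 0.00074), whichever single library was left out. Neither line overlapped Par, which was also so for 25.2% of all genes tested in LM2 and 31.4% in BrM2. Without replicate 2 of all lines both calls were lost (adjusted p of 0.21 and 0.082, edgeR). Without replicate 3 the call in LM2 was lost (0.056) and that in BrM2 passed (0.029). MGAT5, which makes the branched N-glycans that galectin-3 binds, rose from 57.6 to 60.7 CPM in Par to 86.7 to 98.1 in LM2 (0.66, SE 0.15, adjusted p = 0.027) and 103 to 108 in BrM2 (0.84, SE 0.15, adjusted p = 0.0064). Its call in LM2 held in 3 of the 9 fits that left out 1 library and was lost without any Par library, LM2 replicates 2 or 3 or BrM2 replicate 3, and that in BrM2 held in 9.

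The remaining calls among the enzymes concerned BrM2. B3GNT3, which extends glycans with N-acetylglucosamine, lay at 1.11 to 1.52 CPM in Par, 1.49 to 4.17 in LM2 and 6.71 to 10.0 in BrM2. It was higher in BrM2 by 2.68 than in Par (SE 0.39, adjusted p = 0.0022), whichever single library was left out, and by 1.51 than in LM2 (SE 0.37, adjusted p = 0.038), a call kept only without LM2 replicate 1 among the 9 omissions. The sialyltransferase gene ST3GAL6 was higher in BrM2 than in LM2 (1.91, SE 0.37, adjusted p = 0.014), which missed the threshold without LM2 replicate 2 or BrM2 replicate 3. GCNT1, the enzyme that starts core 2 O-glycans, was lower in BrM2 than in Par (−1.26, SE 0.34, adjusted p = 0.038) and kept its call in 2 of the 9 fits (without LM2 replicate 1 or BrM2 replicate 2).

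Proteins that act with galectin-3, galectin-8 and galectin-9 at damaged endomembranes, autophagy receptors and lysosome regulators among them, were all 16 tested. In LM2 against Par 0 were higher and 2 lower (median 0.03), beside 8.7% of all genes passing, and in BrM2 against Par 0 were higher and 1 lower (−0.05), beside 13.3%. Between BrM2 and LM2 0 passed in edgeR (median 0.17), beside 8.09%, with 1 at an unadjusted p under 0.05 and 0 in DESeq2. The block gave 1 higher and 4 lower, 2 and 5, and 2 and 2, beside 34.5%, 42.6% and 37.4% of all genes. OPTN, an autophagy receptor gene, fell by 0.78 in LM2 (SE 0.20, adjusted p = 0.045) and by 0.90 in BrM2 (SE 0.20, adjusted p = 0.018), from 114 to 156 CPM in Par to 69.2 to 86.0 and 62.1 to 82.1. TFEB, the master regulator gene of lysosome biogenesis, fell by 2.06 in LM2 (adjusted p = 0.045). These calls were sensitive to the libraries included. Of 9 fits that left out 1 library, OPTN kept its call in 1 for LM2 (without BrM2 replicate 1). It kept its call in 5 for BrM2 (lost without Par or BrM2 replicates 2 or 3). TFEB kept its call in 3 (lost without any Par library, LM2 replicates 2 or 3 or BrM2 replicate 3). The log2 fold changes over these fits were −0.89 to −0.67, −1.01 to −0.79 and −2.45 to −1.79. With the replicate block the calls passed, at adjusted p of 0.00026, 7e-05 and 0.00029 (edgeR). They also passed without replicate 1 of all lines, but not without replicate 2 or replicate 3.

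Genes of lipid droplets and adipocyte metabolism, the setting in which galectin-12 is known, were tested for 13 of 22, and the other 9 did not pass the filter on low counts. In LM2 against Par 4 were higher and 0 lower (median 0.21), where 8.7% of all genes passed. In BrM2 against Par 2 were higher and 0 lower (0.25), where 13.3% passed, and in BrM2 against LM2 0 were higher and 1 lower (−0.17), where 8.09% passed. Blocked on the replicate, 5 were higher and 1 lower, 2 and 4, and 1 and 5, where 34.5%, 42.6% and 37.4% of all genes passed. These counts include PLIN4 and LPL, which passed the filter on low counts only through LM2, where they are highest, and are not counted as support. PPARG, the nuclear receptor of adipogenesis, lay at 38.5 to 46.0 CPM in Par, 70.7 to 91.0 in LM2 and 69.4 to 87.5 in BrM2, and rose by 0.95 in LM2 (adjusted p = 0.013) and 0.88 in BrM2 (adjusted p = 0.014). PLIN2, the general lipid droplet coat gene, lay at 64.4 to 74.1 CPM in Par, 114 to 178 in LM2 and 118 to 143 in BrM2, and rose by 0.97 (adjusted p = 0.023) and 0.87 (adjusted p = 0.027). Both genes were higher in both metastatic lines without overlap with Par, which was also so for 25.2% of all genes tested in LM2 and 31.4% in BrM2. A link to LGALS12 was not tested. PLIN4, another droplet coat gene, received 7 to 78 counts per library, and LPL, the lipoprotein lipase gene, 10 to 106.

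Leaving out 1 library at a time, PPARG kept its call in 7 of 9 fits for LM2 (lost without Par replicates 1 or 2) and in 6 for BrM2 (also lost without BrM2 replicate 3). PLIN2 kept it in 5 for LM2 (lost without any Par library or BrM2 replicate 3) and in 3 for BrM2 (lost without any Par or BrM2 library). Without the replicate 1 libraries all 4 calls passed, with adjusted p between 0.00047 and 0.0048. Without replicate 2 or replicate 3 of all lines all 4 were lost, with adjusted p between 0.27 and 0.36 in edgeR.

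**Figure D5:**
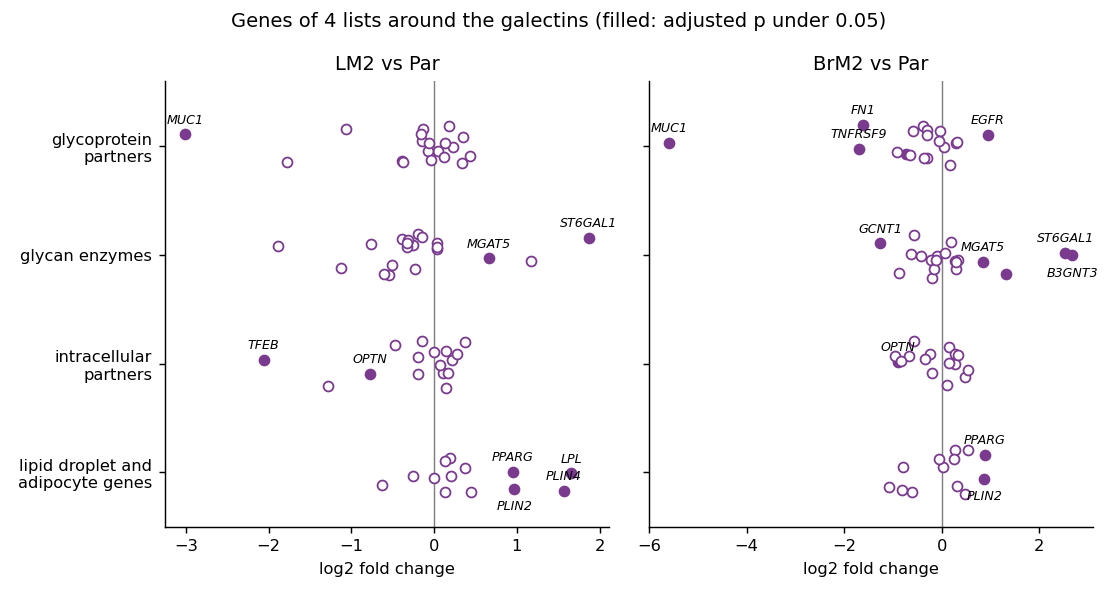
Log2 fold change of each tested gene of 4 lists against Par in LM2 (left) and BrM2 (right), with each list in a row, genes spread vertically to separate them and filled points at an adjusted p under 0.05. MUC1 lies farthest to the left in both comparisons, at −3.01 and −5.60, and ST6GAL1 lies to the right of 0 in both, at 1.87 and 2.53.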

How the data were processed

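The authors harvested 3 biological replicates per line at different passages, made stranded mRNA libraries, sequenced paired ends, aligned them to hg38 and counted reads per gene with STAR 2.7.0. The deposited table holds these counts without normalization (58887 rows, of which 3 repeated identifiers with identical counts were kept once, leaving 58884 genes). The strand counted is not given in the sources used here. A deposited table of the authors' DESeq2 comparisons holds fold change and adjusted p-value per gene for LM2 and BrM2 against Par and was not used.

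Genes were kept by a threshold of 46.45 on the largest normalized count, found after HTSFilter's Jaccard index, which left 13105 genes with at least 99.65% of the counts. Lines were compared in edgeR 4.0.16 (R 4.3.3, limma 3.58.1) with TMM normalization and the 2-sided quasi-likelihood test over all 9 libraries, Benjamini-Hochberg adjustment over all genes tested and a threshold of 0.05. The p-values measure the spread between these libraries of 1 population per line. Scripts were tested on simulated data with less spread than these libraries and no replicate effect, so that test does not cover the replicate 1 split. Alternatives were DESeq2 1.42.0, relative log expression size factors, other filters, the replicate number as a block, and leaving out libraries. Same-numbered libraries of different lines correlated in all 9 pairs (r of 0.23 to 0.90), and the numbers were taken to pair the libraries. Replicates 2 and 3 of different lines also correlated (r of 0.39 to 0.80). The values set replicate 1 apart, and pairing replicates 2 and 3 by number is an assumption. Log2 CPM used a prior count of 2. Ratios of summed counts carry exact 95% intervals. Gene positions and upstream sequences are from RefSeq on GRCh38.p14, where windows matched 14 of the 17 galectin genes. Transcript lengths, shared 50-base stretches and exon overlaps come from GENCODE on GRCh37, without its coordinates.

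The text names the 6 members, up to 4 called genes per list and comparison with the smallest adjusted p, the tested genes within 500 kb of LGALS12 and the 5 nearest profiles. The members and lists were chosen with earlier results of these data known. Of 24 glycoprotein genes listed, 23 were found in the table.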

Additional observations from a re-analysis of the deposited data

Results flagged for a closer look

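A test of the difference between BrM2 and LM2 passed for 7 of the named genes. LGALSL differed by 1.27 on the log2 scale (SE 0.30, adjusted p = 0.034, edgeR), B3GNT3 by 1.51 (SE 0.37, adjusted p = 0.038), ST3GAL6 by 1.91 (SE 0.37, adjusted p = 0.014) and the keratin gene KRT19 by 2.07 (SE 0.45, adjusted p = 0.023), all higher in BrM2. FN1 differed by −1.96 (SE 0.17, adjusted p = 0.00027) and MUC1 by −2.59 (SE 0.46, adjusted p = 0.0095), both lower in BrM2. PLIN4 differed by −2.66, which is a description only, since the gene passed the filter on low counts only through LM2, where it is highest. The KRT19 call was lost without LM2 replicates 2 or 3 or BrM2 replicates 1 or 3. The part of replicate, depth or base composition in these differences was not tested beyond the fits that leave out libraries or block on the replicate.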

How the results depend on the processing

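With the replicate number as a block, the 4 tested galectins gave 2 calls in LM2 against Par and 2 in BrM2 against Par. All genes gave 4522, 5589 and 4901 calls in LM2 against Par, BrM2 against Par and BrM2 against LM2, in place of 1140, 1746 and 1060. In DESeq2 they gave 1907 in LM2 against Par, 2536 in BrM2 against Par and 1830 in BrM2 against LM2. Leaving out libraries, galectin calls ranged from 0 to 1 in each comparison, and calls over all genes from 72 to 4339, 172 to 5289 and 53 to 4261, highest without replicate 1.

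Differences of galectins that missed the threshold changed sign when libraries were left out. Against Par in LM2, LGALS8 came to −0.10 without Par replicate 1 and LGALS9 to −0.11 without LM2 replicate 1. In BrM2, LGALS1 came to 0.10 without replicate 2, and LGALS9 to 0.31 without replicate 3, 0.47 without Par replicate 1, and 0.21 and 0.30 without BrM2 replicates 2 and 3. Between BrM2 and LM2, LGALS1 came to −0.26 without BrM2 replicate 1, LGALS8 to −0.15 without LM2 replicate 1 and to −0.08 and −0.01 without BrM2 replicates 2 and 3, and LGALS9 to 0.04 without LM2 replicate 1. Over all omissions, LGALS8 and LGALS9 ranged from −0.10 to 0.46 and from −0.11 to 1.17 in LM2 against Par. In BrM2 against Par, LGALS1 and LGALS9 ranged from −0.92 to 0.10 and from −0.95 to 0.47. For BrM2 against LM2, LGALS1, LGALS8 and LGALS9 ranged from −0.26 to 0.74, −0.15 to 0.38 and −1.59 to 0.04. The cause was not tested.

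LGALS3 kept its direction against Par under every alternative run, but its calls were lost without replicate 2 or replicate 3 of all lines. The calls of PLAAT3 and PLAAT4 were lost in the same fits. So were those of FN1 in BrM2, of MGAT5, PPARG and PLIN2 against Par, and of ST6GAL1 and MUC1 in LM2 against Par. MUC1 in BrM2 against Par passed in both. In LM2 against Par calls over all genes fell from 1140 to 72 and 137 in these fits. In BrM2 against Par they fell from 1746 to 172 and 276. Without a filter on low counts, MGAT5 and OPTN missed the threshold in both lines, and PLIN2 and PPARG in BrM2. With relative log expression size factors TFEB did, at an adjusted p of 0.055. Of 1569 values under alternatives, 1182 kept direction and side of the threshold or, as counts of calls, stayed within a margin. Another 187 moved, 179 lost and 9 gained a call, and 12 changed sign. The margin was wide, as a rise from 1746 to 2536 calls in BrM2 against Par under DESeq2 lay within it. With 3 libraries per line, depth limits LGALS7B, LGALS9, LGALS9B and the metastatic levels of LGALS12.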
